A study of Rattus norvegicus with 12 samples.

Results

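The ICH hemisphere was compared with the contralateral hemisphere in rats aged 13 months. The samples were the 3 ICH and 3 contralateral libraries numbered 1 to 3 at that age, 6 of the 12 samples of the series, and columns numbered 4 were left out. All genes with at least 10 reads summed over these 6 libraries were kept, which gave 18045 of the 24102 genes of the read-count table. The series asked how brain tissue responds to intracerebral hemorrhage (ICH) at different ages. Both groups came from male Sprague Dawley rats that had 75 µL of their own blood injected into the striatum of the left brain. The left hemisphere gave the ICH group and the right hemisphere of operated rats gave the contralateral group, both 3 days after the injection. No sham-operated or untouched rats were among the groups, so every value is relative to the opposite hemisphere. RNA was extracted with TRIzol and libraries were made from polyadenylated RNA. The labels do not say that samples with the same number came from the same rat, so p-values measure the spread between these samples.

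An intracerebral hemorrhage releases red blood cells into the brain tissue, where hemoglobin is broken down to heme and heme oxygenase frees the iron from it. Microglia, the resident macrophages of the brain, and leukocytes arriving from the blood sense damaged cells through pattern receptors, release cytokines and chemokines, and engulf debris. Astrocytes around the lesion take on a reactive state, and neurons close to it lose synaptic activity or die.

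Total reads were 26642443, 26211415 and 21060355 in contralateral replicates 1, 2 and 3, and 28182156, 27441008 and 28225011 in ICH replicates 1, 2 and 3. Levels are given in CPM, the reads of a gene scaled to a common library size after TMM, a scaling that corrects library sizes for differences in composition. A floor of 3 reads was worth 0.106 to 0.144 CPM, and it covers counting error only. A pair of libraries stood apart. Contralateral replicate 2 had 0.789% of its reads on mitochondrial genes, against 10.2% and 7.65% in contralateral replicates 1 and 3 and 7.06%, 7.52% and 9.20% in ICH replicates 1, 2 and 3. Its level of Mbp, the myelin basic protein of oligodendrocytes, was 10679 CPM, against 4003 and 4914 CPM in contralateral replicates 1 and 3 and 4221, 4137 and 4220.0 CPM in the ICH replicates. Th, which encodes the rate-limiting enzyme of dopamine synthesis, stood at 102 CPM in it and between 0.626 and 2.74 CPM in the other libraries. ICH replicate 3 lay nearer to contralateral replicates 1 and 3 than to the other ICH libraries. Across 13392 genes its log levels correlated at 0.971, 0.942 and 0.969 with contralateral replicates 1, 2 and 3, and at 0.922 and 0.948 with ICH replicates 1 and 2. On the first principal component it scored -8.31, against 64.7 and 53.0 for ICH replicates 1 and 2 and -17.8, -43.4 and -48.2 for the contralateral replicates.

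**Figure D1:**
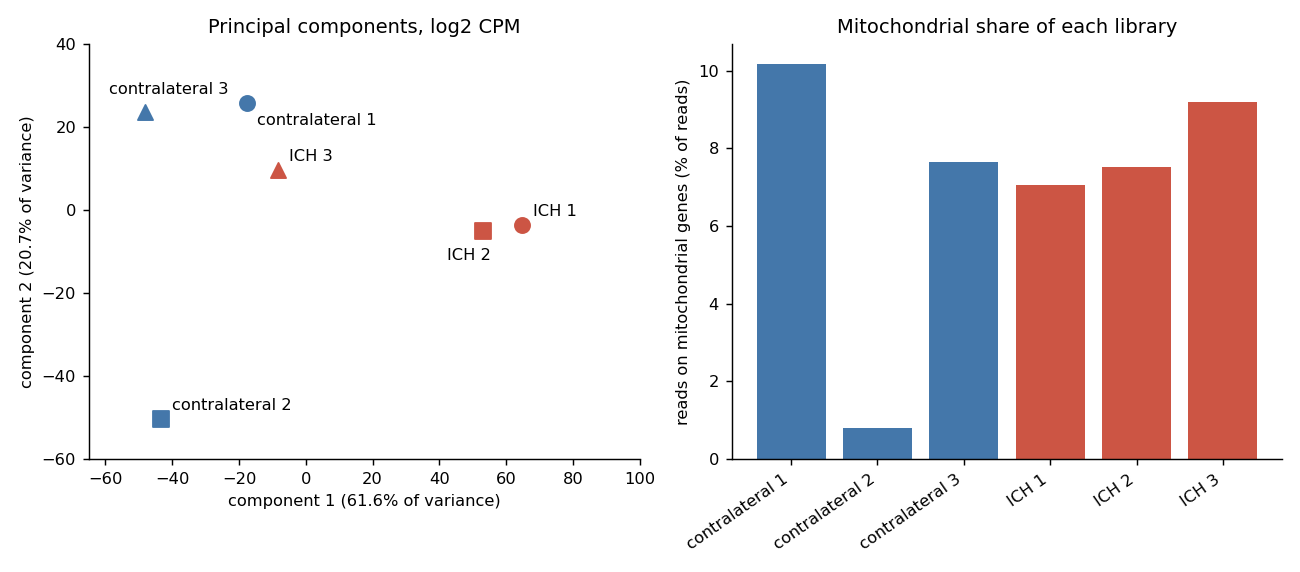
The left panel plots the 6 libraries on principal components 1 and 2 of log2 CPM, and the right panel shows the percent of reads on mitochondrial genes in each library. Contralateral replicate 2 stands alone on component 2 and has the lowest mitochondrial share, 0.789%, and ICH replicate 3 lies on the contralateral side of ICH replicates 1 and 2.

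Genes that rose in the ICH hemisphere at 13 months included all 8 markers of choroid plexus and ependyma and 10 of 17 antigen presentation genes. They also included 10 of 18 pattern-receptor and inflammasome genes, 12 of 23 complement genes and 13 of 30 phagocytosis and lysosome genes. In the main fit these were the lists with the 5 highest shares of such genes. Over other fits, in that order, the counts were 3 to 8, 1 to 15, 4 to 18, 5 to 17 and 3 to 22. Hmox1, the heme oxygenase, Lcn2, which binds iron-loaded siderophores, the cytokine Il1b, the complement component C3 and the lysosomal protein Cd68 were higher in each of the 3 ICH replicates than in any contralateral replicate. Genes of synapses, ion channels and cholesterol synthesis had small negative median log2 fold changes and 0 calls. A gene is said to have risen or fallen where it passed the threshold set out in the study's methods, an unadjusted p under 0.01 and a log2 fold change above 1 or below -1, here in the quasi-likelihood F test of edgeR. After Benjamini-Hochberg adjustment over the 18045 genes, 0 genes (0%) had an adjusted p under 0.05 there, and the smallest adjusted p was 0.0610. At an unadjusted p under 0.05 it gave 3251 genes, 2257 higher and 994 lower in ICH. DESeq2 gave 1264 genes with an adjusted p under 0.05, edgeR's exact test 942, limma on log2(FPKM + 1) 1 and limma on log2(FPKM + 0.1) 0. By the threshold of the study's methods, 698 genes rose (3.87% of genes tested) and 18 fell (0.0998%). In 632 of the 698 genes that rose, and in the 18 that fell, the ICH and contralateral values did not overlap. Among all genes tested, 2082 (11.5%) were higher and 1797 (9.96%) were lower in every ICH replicate than in every contralateral one. The median log2 fold change of all genes was -0.01.

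Of the 698 genes that rose, 617 had a mean of at least 1 CPM. Of the same 698, 404 had a log2 fold change above 2 and 177 above 3. Protein-coding genes made up 96.5% of the genes past the threshold and 91.7% of the genes tested. Of 4 equal groups of genes by mean level, the lowest held 136 that rose, the next held 277 and 173, and the highest held 112. The median log2 fold change went from 0.11 in the lowest group to -0.13 in the highest. By autosome, between 1.93% (chromosome 18) and 6.48% (chromosome 13) of tested genes passed the threshold.

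These counts depended on single libraries. Without contralateral replicates 1, 2 and 3 in turn, 686, 457 and 252 genes rose and 36, 30 and 26 fell. Without ICH replicates 1, 2 and 3 in turn, 339, 257 and 1417 genes rose and 6, 5 and 59 fell. Adjusted p-values under 0.05 were found for 1542 genes without ICH replicate 3, 9 without contralateral replicate 2, and 0 without each of the others. With both contralateral replicate 2 and ICH replicate 3 left out, a setting chosen after seeing the data, 1581 genes rose and 193 fell, and 3178 had an adjusted p under 0.05. Of the 716 genes past the threshold in all 6 libraries, 451, 319 and 246 passed again without contralateral replicate 1, 2 or 3. Without ICH replicate 1, 2 or 3, 312, 256 and 644 of them passed again. Each of these genes that was tested kept its direction in every one of these fits. The genes were chosen in the same libraries, so this is no independent check.

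**Figure D2:**
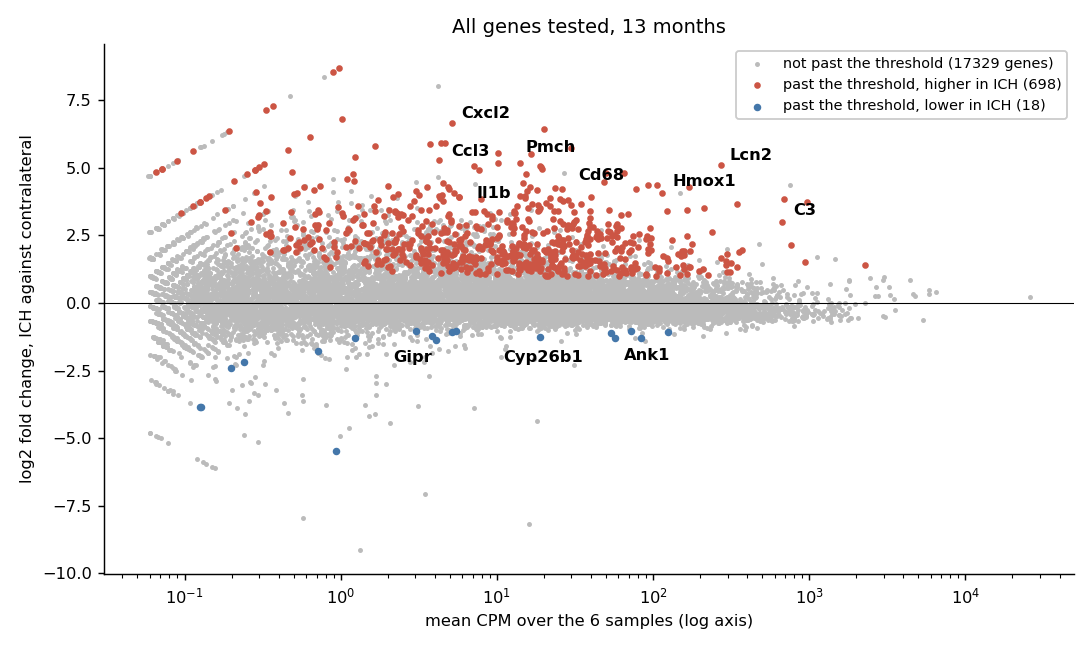
Each point is 1 of the 18045 genes tested, with its mean CPM over the 6 samples on a log axis and its log2 fold change of ICH against contralateral on the vertical axis. Red marks the 698 genes that rose, blue the 18 that fell and grey the genes that did not pass the threshold.

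Among genes with a mean of at least 1 CPM, the 12 with the largest log2 fold changes of those that rose and whose groups did not overlap included chemokines, an anti-inflammatory regulator and secreted binding proteins. Cxcl2, a ligand of the neutrophil receptor Cxcr2, had 2, 1 and 4 reads in the contralateral replicates and 629, 196 and 26 reads in the ICH replicates. That was 0.0784, 0.0360 and 0.193 CPM against 22.7, 7.09 and 0.915 CPM, with a log2 fold change of 6.66 (SE 1.31, adjusted p = 0.170). Each ICH replicate was above each contralateral one, although ICH replicate 3 was far below the other ICH replicates. The contralateral counts of Cxcl2 lie near the floor, so its fitted fold depends on the prior count. Lcn2 stood at 9.73, 13.2 and 23.01 CPM in the contralateral replicates and at 575, 835 and 172 CPM in the ICH replicates, a log2 fold change of 5.11 (SE 0.65, adjusted p = 0.0853). Its groups were far apart, with the lowest ICH value again in replicate 3. Ccl3, a ligand for the monocyte receptor Ccr1, had 0.784, 0.108 and 0.770 CPM against 33.9, 21.4 and 4.47 CPM, and a log2 fold change of 5.18 (SE 0.92, adjusted p = 0.153). Cst7 encodes cystatin F, an inhibitor of lysosomal proteases in immune cells. It had 0.196, 0.0360 and 0.193 CPM against 10.5, 14.9 and 0.703 CPM and a log2 fold change of 5.93. Its contralateral reads were 5, 1 and 4, also near the floor. Tnip3, which encodes a binding partner of the NF-κB inhibitor A20, had 0, 1 and 0 reads in the contralateral replicates and 35, 118 and 15 reads in the ICH replicates. With a single contralateral read, its fitted log2 fold change of 6.80 depends on the prior count and is no bound.

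Siglec10, an inhibitory receptor of immune cells that binds sialic acid, had 0.628, 0.324 and 0.289 CPM against 30.5, 28.05 and 1.20 CPM and a log2 fold change of 5.56. Htr2b, a serotonin receptor, had 0.314, 0.108 and 0 CPM against 15.1, 12.01 and 0.422 CPM, and Serpinb8, an inhibitor of serine proteases, had 0.235, 0.0720 and 0.337 CPM against 13.4, 11.2 and 0.352 CPM. For Htr2b, Siglec10 and Serpinb8, ICH replicates 1 and 2 were high and ICH replicate 3 was just above the contralateral values. Htr2b did not pass the threshold when contralateral replicate 2 or 3 or ICH replicate 1 or 2 was left out, and Serpinb8 lost the call when any 1 library other than ICH replicate 3 was left out. A different pattern was seen in Glycam1, a mucin that serves as a ligand of L-selectin. It had 0.0392, 0.216 and 1.20 CPM in the contralateral and 42.99, 30.001 and 46.6 CPM in the ICH replicates, a log2 fold change of 6.43 (SE 0.82, adjusted p = 0.0853), with all 3 ICH replicates at a similar level. The contralateral reads of Glycam1 were 1, 6 and 25, the first of them under the floor. Pon1, a paraoxonase, was highest in ICH replicate 3, with 0.0784, 0.0720 and 0 CPM against 1.77, 1.59 and 3.94 CPM. The value of Rps6, a ribosomal protein gene, is uncertain. Ribosomal protein genes have near-identical copies, and the part of such copies in this value was not tested. The reads of Rps6 were 35, 37 and 10 against 2124, 47 and 2757, so that ICH replicate 2 was close to the contralateral libraries. Rps6 did not pass without contralateral replicate 2 or 3. The neuropeptide gene Pmch had 0.510, 1.30 and 0.433 CPM against 1.73, 76.4 and 4.47 CPM, with ICH replicate 2 far above the rest. Without ICH replicate 2 its log2 fold change was 2.05 and it did not pass, nor did it when any 1 contralateral replicate was left out.

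Promoter sequences are shown for Cxcl2 and Lcn2, as increases among these 12 whose promoter held the motif searched for, and for Steap4 and Tnfaip3, which rose among the iron genes and the cytokine genes. Each is the 250 bases before the RefSeq gene start in rat build GRCr8, minus strand, written 5′ to 3′. Capitals mark matches to the κB motif, a 10-letter motif bound by NF-κB, on either strand, and in Tnfaip3 also TGANTCA, a motif bound by AP-1. The coordinates are chr14:17467256-17467505 for Cxcl2, chr3:36081781-36082030 for Lcn2, chr4:27054770-27055019 for Steap4 and chr1:15543980-15544229 for Tnfaip3.
Cxcl2: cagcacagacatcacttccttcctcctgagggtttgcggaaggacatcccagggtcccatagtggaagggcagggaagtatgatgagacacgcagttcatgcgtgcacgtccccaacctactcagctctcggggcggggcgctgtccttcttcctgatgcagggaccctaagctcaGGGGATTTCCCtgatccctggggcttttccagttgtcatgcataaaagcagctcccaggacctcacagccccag
Lcn2: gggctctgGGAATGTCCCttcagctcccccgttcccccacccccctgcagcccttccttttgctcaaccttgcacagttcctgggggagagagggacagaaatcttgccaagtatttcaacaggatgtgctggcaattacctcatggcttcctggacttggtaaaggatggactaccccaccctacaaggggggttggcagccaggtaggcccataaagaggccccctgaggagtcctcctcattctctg
Steap4: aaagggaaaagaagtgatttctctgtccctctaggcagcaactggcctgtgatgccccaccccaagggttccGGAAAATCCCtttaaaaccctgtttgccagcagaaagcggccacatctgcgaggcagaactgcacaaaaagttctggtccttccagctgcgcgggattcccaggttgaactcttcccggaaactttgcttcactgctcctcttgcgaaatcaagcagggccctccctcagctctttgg
Tnfaip3: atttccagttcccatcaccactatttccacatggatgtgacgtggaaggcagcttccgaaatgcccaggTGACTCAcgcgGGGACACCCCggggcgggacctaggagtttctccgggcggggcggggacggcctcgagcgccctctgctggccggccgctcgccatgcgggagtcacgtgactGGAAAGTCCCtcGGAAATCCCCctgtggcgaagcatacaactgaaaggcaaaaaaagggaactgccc
The matches in Cxcl2 overlap and begin 74 and 73 bases before the start. The match in Lcn2 begins 242 bases and that in Steap4 178 bases before it. Tnfaip3 holds 3 κB matches, beginning 170, 67 and 55 bases before the start, and a TGANTCA match that begins at 181. Of the 27457 promoters of the table, 6.33% held a κB match and 6.41% held TGANTCA. A promoter was matched by symbol for 11651 of the 18045 genes tested, of which 8.35% held a κB match and 4.89% held TGANTCA. For the 698 genes that rose, 473 promoters were matched, with a κB match in 49 (10.4%) and TGANTCA in 41 (8.67%). For the 18 genes that fell, 8 promoters were matched, with a κB match in 2 (25%) and TGANTCA in 1 (12.5%). A κB match was held by 2 of the 10 matched promoters of chemokine genes that rose, 2 of 11 of cytokine genes, 1 of 9 of pattern-receptor and inflammasome genes, 0 of 5 of complement genes and 2 of 4 of heme and iron genes. A match is a stretch of letters and was not tested as a binding site.

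Of the 18 genes that fell 12 had a mean of at least 1 CPM, 2 of them with clone-based names. Those with a symbol that is not clone based had log2 fold changes from -1.36 to -1.05. The increases named before had 5.11 or more, but they were picked as the largest of many. Over all 18 genes that fell, the largest absolute log2 fold change was 5.49. Cyp26b1, which encodes an enzyme that degrades retinoic acid, had 30.2, 27.4 and 21.7 CPM in the contralateral and 14.8, 10.1 and 8.69 CPM in the ICH replicates, a log2 fold change of -1.24 (SE 0.25, adjusted p = 0.171). Gipr, the receptor for the incretin hormone GIP, had 6.08, 6.98 and 4.62 CPM against 2.23, 2.06 and 2.57 CPM and a log2 fold change of -1.36 (SE 0.28, adjusted p = 0.171). The groups did not overlap for either gene, and both passed the threshold with any 1 library left out. Cabp1, a calcium-binding protein of neurons, had 156, 157 and 193 CPM against 83.9, 59.97 and 97.9 CPM, a log2 fold change of -1.07. Col11a2, a chain of collagen XI, and Ank1, an ankyrin of the membrane skeleton, were highest in contralateral replicate 2. Col11a2 had 111, 162 and 81.7 CPM against 44.5, 39.1 and 62.1 CPM, and Ank1 had 49.2, 131 and 63.1 CPM against 29.8, 32.2 and 37.3 CPM. Without contralateral replicate 2 their log2 fold changes were -0.98 and -0.75, and neither passed. Tmem151b, a membrane protein gene, had 65.9, 77.7 and 77.3 CPM against 27.2, 29.7 and 45.6 CPM.

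The remaining decreases among genes with a gene symbol that is not clone based and a mean of at least 1 CPM were Mroh5, Pappa2, Pdzd7 and Lgr5, with log2 fold changes from -1.31 to -1.05. Pappa2 encodes a protease that cleaves IGF-binding proteins, and Lgr5 encodes a receptor for R-spondins. All 4 lost the call in several fits with 1 library left out, Lgr5 in all 6, Mroh5 in all but the one without contralateral replicate 2, Pdzd7 in all but the one without ICH replicate 3, and Pappa2 in all but those without contralateral replicate 3 or ICH replicate 3. Cabp1 lost it without contralateral replicate 3 or ICH replicate 2, Tmem151b without ICH replicate 1 or 2, Col11a2 also without ICH replicate 1 or 2, and Ank1 when any 1 of the ICH replicates was left out. Kcnab3, a subunit of voltage-gated potassium channels, and Scrt1, a transcriptional repressor of neurons, had log2 fold changes of -0.96 and -0.95, short of the threshold, the next by size among such genes with an unadjusted p under 0.01 and groups that did not overlap. Kcnab3 had 28.6, 51.2 and 52.5 CPM against 23.2, 21.8 and 23.1 CPM, and Scrt1 had 76.9, 102 and 97.2 CPM against 45.3, 42.6 and 54.9 CPM. Both had groups that did not overlap.

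Heme and iron genes were the first functional group. Of 27 tested, 7 rose and 0 fell, and their median log2 fold change was 0.77. The enzyme that opens the heme ring, Hmox1, had 14.4, 14.7 and 9.43 CPM in the contralateral and 279, 320.3 and 41.5 CPM in the ICH replicates. Its groups did not overlap, with ICH replicates 1 and 2 highest, and its log2 fold change was 4.05 (SE 0.72, adjusted p = 0.150). Hmox2, the constitutive heme oxygenase, had a log2 fold change of -0.19, and the biliverdin reductases Blvra and Blvrb, which act after heme oxygenase, had 0.31 and 0.32. Of the 5 genes of hemoglobin and heme uptake 0 passed. Hp, which encodes the hemoglobin scavenger haptoglobin, had 1.96, 0.972 and 0.626 CPM against 14.8, 11.04 and 1.06 CPM, and Cd163, the receptor of the haptoglobin complex, had 3.96, 7.74 and 2.36 CPM against 6.92, 13.9 and 3.27 CPM, with overlapping groups for both.

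The ferritin chains did not pass either. Fth1 had 2329.6, 2181 and 1810.4 CPM against 5319, 4009 and 2206 CPM and Ftl1 234, 379.7 and 182 CPM against 1071, 832 and 276 CPM, so that ICH replicates 1 and 2 were above the contralateral values and ICH replicate 3 was among them. Among the 11 iron transport genes 5 rose. Besides Lcn2 these were Slc11a1, a metal transporter of phagosomes, Slc39a8, a metal importer, Steap4, a metalloreductase, and Cp, the ferroxidase ceruloplasmin, with log2 fold changes of 2.996, 2.0002, 2.53 and 1.98. Steap4 had 3.26, 2.74 and 3.22 CPM against 15.3, 30.9 and 6.89 CPM. Tfrc, the transferrin receptor, had 112, 68.8 and 109 CPM against 387, 410.0 and 86.1 CPM and a log2 fold change of 1.61, short of the threshold. Hfe, whose product binds the transferrin receptor, rose by 1.15 on the log2 scale. Hamp, which encodes the iron hormone hepcidin, had too few reads to be tested. Leaving out 1 library gave 4, 5 and 3 without contralateral replicate 1, 2 or 3, and 4, 5 and 11 without ICH replicate 1, 2 or 3, and the median was 0.51 without ICH replicate 1. Hmox1, Lcn2 and Steap4 passed in all 6 of these fits. Cp lost the call without contralateral replicate 1 or 3, Hfe without either of those or ICH replicate 1, Slc11a1 without contralateral replicate 2 or 3 or ICH replicate 1 or 2, and Slc39a8 when any 1 library other than ICH replicate 3 was left out. The summed level of the 27 genes was 4784, 6188 and 4482 CPM in the contralateral and 12442, 10509 and 5372 CPM in the ICH replicates, and Fth1 made up 40.8% of it.

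**Figure D3:**
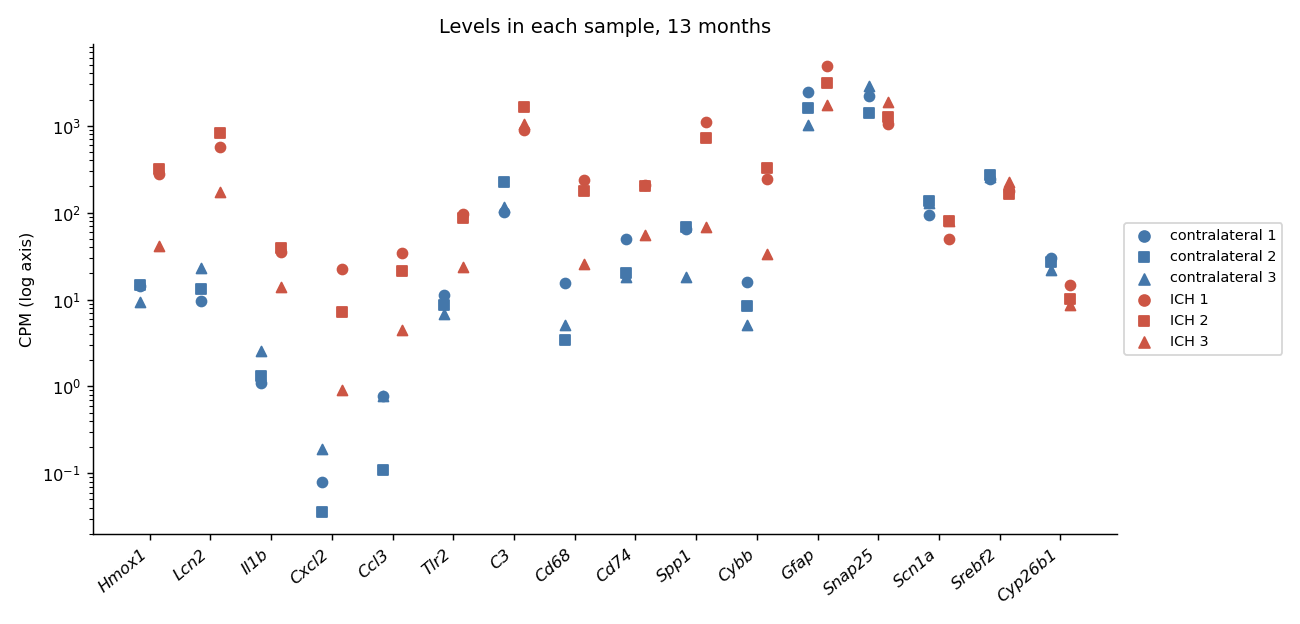
Points give the CPM, on a log axis, of 16 genes in each of the 6 samples, contralateral in blue and ICH in red, with a symbol for each replicate number. In Lcn2, Il1b and C3 every ICH point lies above every contralateral point, and in Scn1a, Srebf2 and Cyp26b1 every ICH point lies under every contralateral point.

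Chemokines draw leukocytes along gradients through receptors on the cell surface. Of 38 ligands and receptors tested, 14 rose and 0 fell, with a median log2 fold change of 2.76. Among the 14 CC ligands, which act mainly on monocytes and lymphocytes, Ccl3, Ccl4, Ccl6 and Ccl9 rose. Ccl4 had 0.431, 0.252 and 0.722 CPM in the contralateral and 5.30, 4.45 and 2.88 CPM in the ICH replicates, a log2 fold change of 3.18 (SE 0.48, adjusted p = 0.1249), with groups far apart. Ccl2, the ligand of Ccr2, had 2.98, 0.180 and 5.25 CPM against 39.2, 48.96 and 2.39 CPM. ICH replicates 1 and 2 were high in Ccl2 but ICH replicate 3 lay among the contralateral values, and it did not pass. Among the 12 CXC and CX3C ligands Cxcl2, Cxcl3, Cxcl9, Cxcl13 and Cxcl16 rose. Cxcl16, a membrane-bound ligand of Cxcr6, had 18.7, 10.9 and 12.2 CPM against 146, 116 and 41.4 CPM and a log2 fold change of 2.86 (SE 0.47, adjusted p = 0.144). The B-cell attractant Cxcl13 had 2.35, 31.7 and 14.9 CPM against 131, 676 and 156 CPM, with wide spread in both groups but no overlap.

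Some ligands had negative values without passing. Cxcl12, which retains cells through Cxcr4, had 96.4, 63.6 and 74.1 CPM against 39.6, 39.05 and 53.01 CPM and a log2 fold change of -0.83, with groups that did not overlap, and the neuronal ligand Cx3cl1 had -0.54. Of the 12 receptors, Ccr1, Ccr2, Ccr7, Cxcr3 and Cxcr4 rose. Cxcr4, the receptor of Cxcl12, had 3.65, 2.92 and 1.54 CPM against 61.3, 34.1 and 5.66 CPM and a log2 fold change of 3.63. Ccr2, the receptor of inflammatory monocytes, had 1, 0 and 0 reads in the contralateral replicates and stood at 0.360, 0.977 and 0.141 CPM in the ICH replicates, so no fold is given. Cxcr2, the neutrophil receptor for Cxcl2, had 0.706, 0.216 and 0.337 CPM against 0.973, 1.48 and 0.0352 CPM, with overlapping groups. The median of the chemokine list was 1.64 without ICH replicate 2, and 0.97 with limma on log2(FPKM + 1). The number of chemokine genes that rose was 9, 6 and 6 without contralateral replicate 1, 2 or 3, and 9, 5 and 19 without ICH replicate 1, 2 or 3. Ccl3, Ccl4, Cxcl2 and Cxcl16 passed in all 6 of these fits, Cxcl13 lost the call without contralateral replicate 3 or ICH replicate 2, and Cxcr4 lost it without contralateral replicate 2 or 3. The other 8 lost it in at least 4 of the fits, always without contralateral replicate 3 and ICH replicate 2. Their summed level was 829, 592 and 948 CPM against 1068, 1559.6 and 899 CPM, with 43.1% from Cx3cl1.

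Cytokines and their receptors gave 11 genes that rose and 0 that fell of 38 tested, with a median log2 fold change of 1.60. In the interleukin-1 family Il1b, Il1rn and Il18 rose. Il1b, the secreted pro-inflammatory cytokine, had 1.10, 1.33 and 2.55 CPM in the contralateral and 34.95, 39.2 and 13.8 CPM in the ICH replicates, and a log2 fold change of 4.15 (SE 0.51, adjusted p = 0.0853). All 3 ICH values lay well above the contralateral ones, also in ICH replicate 3. Its natural antagonist Il1rn had 2.20, 2.45 and 2.31 CPM against 29.01, 35.6 and 5.24 CPM and a log2 fold change of 3.33. Il18, which is released through caspase-1 cleavage, had 5.57, 4.25 and 4.62 CPM against 21.4, 21.8 and 9.005 CPM and a log2 fold change of 1.85. The interleukin-6 family had 0 of 10 genes past the threshold, where 3.87% of all genes rose, and a median of 1.30. Il6 itself stood at 0.196, 0.0360 and 0.529 CPM against 0.252, 0.326 and 0.176 CPM, and Socs3, a feedback inhibitor of its signalling, at 3.69, 0.900 and 2.84 CPM against 17.98, 14.4 and 1.97 CPM, with overlapping groups for both.

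In the TNF family the receptor Tnfrsf1b and Tnfaip3, the A20 inhibitor of NF-κB, rose by 2.09 and 1.43 on the log2 scale, and Tnf had too few reads to be tested. Tnfaip3 had 7.69, 5.25 and 4.52 CPM against 17.3, 20.5 and 9.36 CPM. Of the growth factor and other receptors, Tgfbr1 and Tgfbr2, which bind TGF-β, Csf1r, which binds the macrophage growth factor, Csf3r, which binds the granulocyte growth factor, Il10ra and Il13ra1 rose. Csf3r had 13.5, 8.57 and 9.34 CPM against 63.8, 57.6 and 20.3 CPM and a log2 fold change of 2.17. The ligand gene Tgfb1, at 28.8, 19.6 and 16.7 CPM against 96.03, 67.2 and 26.4 CPM, did not pass. With limma on log2(FPKM + 1) the cytokine median was 0.70. With 1 library left out, the cytokine genes that rose were 9, 4 and 4 without contralateral replicate 1, 2 or 3, and 4, 4 and 26 without ICH replicate 1, 2 or 3. Il1b, Il1rn, Il18 and Csf3r passed in all 6 of these fits, and the other 7 did not pass without contralateral replicate 2 or 3 or ICH replicate 1 or 2. Summed over the list, the level was 869, 684 and 591 CPM against 2228, 1946 and 833 CPM, with 29.0% from Csf1r.

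Pattern receptors and the inflammasome sense damage and pathogens and activate caspase-1. All 18 genes tested had a positive log2 fold change, 10 rose, and the median was 1.82. Tlr2, which senses lipoproteins and damage signals, had 11.2, 8.75 and 6.79 CPM in the contralateral and 97.1, 87.3 and 23.5 CPM in the ICH replicates, a log2 fold change of 2.96 (SE 0.52, adjusted p = 0.150). Its co-receptor Cd14 had 4.94, 5.72 and 4.48 CPM against 89.8, 90.2 and 12.1 CPM and a log2 fold change of 3.66. In both, ICH replicates 1 and 2 were close together and ICH replicate 3 lay between them and the contralateral values. Tlr4, the endotoxin receptor, and the endosomal receptors Tlr7, Tlr8 and Tlr9 rose by 1.71, 2.13, 3.86 and 2.10 on the log2 scale. In the inflammasome, the sensors Nlrp3 and Naip6 and the caspase genes Casp1 and Casp4 rose, with log2 fold changes from 1.54 to 2.19. The adaptor Pycard and the pore-forming Gsdmd had 1.75 and 1.22 and did not pass. Leaving out single libraries gave 10, 7 and 7 without contralateral replicate 1, 2 or 3, and 6, 4 and 18 without ICH replicate 1, 2 or 3. Tlr2, Cd14, Tlr7 and Tlr8 passed in all 6 of these fits, Tlr9 lost the call without ICH replicate 2, and the other 5 lost it there and in at least 2 further fits. The list summed to 125, 92.02 and 72.6 CPM against 584, 599 and 161 CPM, with Tlr2 the highest at 14.4%.

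Complement genes encode a cascade of plasma proteases that tags debris for uptake. Of 23 tested, 12 rose and 0 fell, with a median of 1.40. C3, the central component, had 102, 227 and 117 CPM in the contralateral and 882, 1642 and 1057 CPM in the ICH replicates, and a log2 fold change of 3.01 (SE 0.40, adjusted p = 0.0853). ICH replicate 3 lay between the other ICH replicates for C3, unlike in most immune genes named here. Of the other components C1r, C1s, C2, Cfb and the alternative-pathway stabiliser Cfp rose. Cfp had 9.45, 10.8 and 9.15 CPM against 31.7, 52.3 and 27.3 CPM and a log2 fold change of 1.92 (SE 0.27, adjusted p = 0.109). The C1q chains C1qa, C1qb and C1qc, made by microglia, had log2 fold changes of 1.14, 1.27 and 1.40 and did not pass. Among the receptors, C3ar1 and C5ar1, which bind the anaphylatoxins, and Itgam and Itgb2, the chains of complement receptor 3, rose. C5ar1 had 4.47, 2.23 and 2.17 CPM against 62.1, 47.4 and 5.07 CPM, with ICH replicate 3 just above the contralateral values. Among the inhibitors Serping1, the C1 inhibitor, rose, and Cd55, Cd59 and Cd46 had log2 fold changes of 0.11, 0.21 and -0.15. The count of complement genes was 16, 5 and 5 without contralateral replicate 1, 2 or 3, and 7, 7 and 15 without ICH replicate 1, 2 or 3. C1s, C2, C3, Cfp and Serping1 passed in all 6 of these fits, C3ar1 and C5ar1 lost the call without contralateral replicate 2 or 3, and the other 5 lost it there and without ICH replicate 1 or 2. The summed level was 1323, 1028 and 750.5 CPM against 3722, 4189.9 and 2383 CPM, with C3 at 30.1%.

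Interferon response genes were all positive, with log2 fold changes from 0.58 to 3.43 and a median of 1.21. Of 22 tested 2 rose, beside 3.87% of all genes. These were Irf8, a transcription factor of myeloid cells, and Ifitm1, an antiviral membrane protein, at 1.93 and 3.43. With the same 6 libraries, 6 rose with the DESeq2 test, 7 with the exact test of edgeR and 0 with limma on log2(FPKM + 1). Contralateral replicate 1 was high for this list. Its summed level there was 1137 CPM, against 308 and 408 CPM in contralateral replicates 2 and 3 and 1781, 1819 and 644 CPM in the ICH replicates. Irf7, the master regulator of type I interferon, had 96.4, 11.3 and 21.7 CPM against 153, 139 and 33.1 CPM, so contralateral replicate 1 was above ICH replicate 3. The antiviral effector Mx1 had 59.4, 5.002 and 15.6 CPM against 135, 218 and 54.03 CPM, with the same order. Without contralateral replicate 1, 14 of the 22 genes rose and the median was 2.05. Without contralateral replicate 2 or 3 or ICH replicate 1 or 2, 0 did, and without ICH replicate 3, 5 did.

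Antigen presentation genes load peptides on MHC molecules for T cells. All 17 tested were positive, 10 rose, and the median was 1.91. Of the 8 class II genes 6 rose: the invariant chain Cd74, the chains RT1-Ba, RT1-Bb, RT1-Da and RT1-Db1, and the transactivator Ciita. Cd74 had 50.05, 20.3 and 17.95 CPM in the contralateral and 210.3, 204 and 54.98 CPM in the ICH replicates, a log2 fold change of 2.41 (SE 0.59, adjusted p = 0.183). ICH replicates 1 and 2 were alike, and ICH replicate 3 was just above contralateral replicate 1. RT1-Da had 17.8, 7.49 and 5.29 CPM against 102, 96.4 and 18.7 CPM and a log2 fold change of 2.82. Among class I and co-stimulation genes, B2m, the light chain of class I molecules, the immunoproteasome subunits Psmb8 and Psmb9, and the co-stimulator Cd40 rose. B2m had 753, 335 and 377 CPM against 1829, 1559 and 795 CPM. The number that rose was 11, 1 and 1 without contralateral replicate 1, 2 or 3, and 1, 1 and 15 without ICH replicate 1, 2 or 3, and 1 with all 12 samples in the fit. Cd40 passed in all 6 of these fits, and Cd74 and the other 8 did not pass without contralateral replicate 2 or 3 or ICH replicate 1 or 2. The list summed to 960.3, 429 and 459.6 CPM against 2573, 2227 and 993 CPM, with 73.9% from B2m.

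Phagocytosis and lysosome genes take up and digest debris. All 30 tested were positive, 13 rose, and the median was 2.12. Of the 14 phagocytic receptor genes, 8 rose. Cd68, a glycoprotein of macrophage lysosomes, had 15.3, 3.42 and 5.10 CPM in the contralateral and 237, 177 and 25.9 CPM in the ICH replicates, a log2 fold change of 4.20 (SE 0.91, adjusted p = 0.179). Its groups did not overlap, and ICH replicate 3 was the lowest ICH sample. The scavenger receptor Msr1 rose by 4.23 on the log2 scale, although ICH replicate 3, at 4.82 CPM, was under contralateral replicate 1, at 5.06 CPM. Fcgr1a, Fcgr2b and Fcgr3a, receptors for antibody-coated particles, and the signalling chains Fcer1g and Tyrobp rose by 2.36 to 2.65, and Clec4e, a sensor of dead cells, also rose. Trem2, the lipid receptor that signals through Tyrobp, had 28.2, 23.2 and 16.1 CPM against 102, 68.7 and 27.3 CPM and did not pass, and Axl and Mertk, receptors for dying cells, had log2 fold changes of 0.27 and 0.24. Of the 16 lysosomal and lipid-handling genes, the cathepsins Ctsl and Ctsz, the cholesterol carriers Abca1 and Npc2, and the lipid-droplet protein Plin2 rose.

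Large values that did not pass were seen in the same group. Gpnmb, a glycoprotein of lipid-laden macrophages, had 161, 23.03 and 24.1 CPM against 2836, 1387 and 101 CPM, and Lgals3, which encodes galectin-3, had 32.4, 11.9 and 5.39 CPM against 561, 265 and 15.8 CPM. In both, ICH replicates 1 and 2 were far above every contralateral sample, while ICH replicate 3 was under contralateral replicate 1. Apoe, the main lipid carrier of the brain, had 2932, 4060.5 and 2563 CPM against 7829, 6185 and 3069 CPM and made up 40.5% of the summed level of the list. That sum was 6807, 6943 and 5122 CPM against 23804, 16333 and 6715 CPM. Members that rose numbered 10, 3 and 4 without contralateral replicate 1, 2 or 3, and 6, 6 and 22 without ICH replicate 1, 2 or 3. Cd68, Fcgr2b and Fcer1g passed in all 6 of these fits, Fcgr3a, Tyrobp and Ctsz lost the call without contralateral replicate 2 or 3, and Msr1 and Fcgr1a lost it there and without ICH replicate 1 or 2. Clec4e lost it without contralateral replicate 2 or ICH replicate 1 or 2. Ctsl, Abca1, Npc2 and Plin2 lost it when any 1 library other than ICH replicate 3 was left out.

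Oxidative stress genes were grouped by role, and differences between the roles were not tested. All 5 genes of the NADPH oxidase that generates superoxide in phagocytes rose, with a median of 2.83. Its catalytic subunit Cybb had 15.7, 8.31 and 5.15 CPM in the contralateral and 241, 330.4 and 33.2 CPM in the ICH replicates, a log2 fold change of 4.37 (SE 0.85, adjusted p = 0.170). Its organiser Ncf1 had 35.1, 29.4 and 17.9 CPM against 317, 454 and 133 CPM and a log2 fold change of 3.45 (SE 0.48, adjusted p = 0.106). Both had groups that did not overlap, with ICH replicate 3 the lowest ICH sample. Of 13 targets of the antioxidant factor NRF2, 2 rose, Hmox1 and the peroxidase Prdx1, and the median was 0.12. Nqo1, a quinone reductase, had 18.4, 21.1 and 17.95 CPM against 34.3, 24.97 and 24.3 CPM, and the glutathione synthesis genes Gclc and Gclm had log2 fold changes of 0.12 and -0.08. Of 9 genes for metallothioneins and peroxide removal, Gpx1, a glutathione peroxidase, rose by 1.91, and the median was 0.16. The ferroptosis suppressor Gpx4 had -0.12 and did not pass. Of the 27 genes of the list 8 rose, with a median of 0.44 (0.29 without ICH replicate 2), and leaving out 1 library gave 8, 7 and 5 without contralateral replicate 1, 2 or 3, and 6, 6 and 10 without ICH replicate 1, 2 or 3. Hmox1, Cybb and Ncf1 passed in all 6 of these fits, Gpx1 lost the call without contralateral replicate 3, and Prdx1 without contralateral replicate 1 or 3 or ICH replicate 1 or 2. The list summed to 2776, 3677 and 2788 CPM against 4941, 5064 and 3276 CPM, with Sqstm1 at 18.8%.

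Coagulation, matrix and vessel genes act in clotting, tissue repair and the blood-brain barrier. Of 16 coagulation and fibrinolysis genes 3 rose, with a median of 1.19: Tfpi2, a protease inhibitor, Anxa2, which anchors plasminogen activation on cells, and Thbs1, the matrix protein thrombospondin 1. Thbs1 had 3.26, 4.03 and 4.77 CPM in the contralateral and 72.2, 50.5 and 3.66 CPM in the ICH replicates, with ICH replicate 3 inside the contralateral range. Coagulation genes that rose numbered 7 with the DESeq2 test, 7 with the exact test of edgeR and 1 with limma on log2(FPKM + 1). The number that rose was 2 without contralateral replicate 1, 0 without any 1 of contralateral replicates 2 and 3 and ICH replicates 1 and 2, and 9 without ICH replicate 3, and the median was 0.71 without ICH replicate 1. Tfpi2, Anxa2 and Thbs1 lost the call in all of these fits but that without ICH replicate 3. Of 29 extracellular matrix genes 5 rose, with a median of 1.16: Spp1, the secreted glycoprotein osteopontin, the metalloproteinases Mmp14 and Mmp19, their inhibitor Timp1, and the sheddase Adam8. Spp1 had 65.2, 67.5 and 18.1 CPM against 1113, 729 and 68.03 CPM and a log2 fold change of 3.66 (SE 0.97, adjusted p = 0.187). Its ICH replicate 3 was within 1 CPM of contralateral replicate 2, and the call was lost when any 1 library other than ICH replicate 3 was left out, as it was for Mmp19, Timp1 and Adam8. Matrix genes that rose numbered 0, 1 and 1 without contralateral replicate 1, 2 or 3, and 0, 0 and 16 without ICH replicate 1, 2 or 3. With no library left out they numbered 11 with the DESeq2 test, 10 with the exact test of edgeR and 0 with limma on log2(FPKM + 1). Collagen genes did not pass, with Col1a1 at 19.8, 37.5 and 14.5 CPM against 65.1, 75.7 and 16.3 CPM.

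Of 22 vessel and blood-brain barrier genes, 1 rose, Icam1, a leukocyte adhesion molecule, beside 3.87% of all genes. The median was 0.34, and 0.19 or 0.22 without ICH replicate 1 or 2. Icam1 had 9.88, 8.24 and 10.1 CPM against 42.95, 44.9 and 14.8 CPM and a log2 fold change of 1.86, with ICH replicate 3 the lowest ICH sample but above the contralateral ones. The tight-junction genes Cldn5, Ocln and Tjp1 had log2 fold changes of -0.24, 0.45 and 0.02. Without contralateral replicate 2, 2 vessel genes rose, and without ICH replicate 3, 6 did. With all 6 libraries, 5 vessel genes rose with the DESeq2 test, 5 with the exact test of edgeR and 1 with limma on log2(FPKM + 1). Summed levels in contralateral and ICH replicates were 378, 449 and 312 against 902, 677 and 358 CPM for coagulation genes. They were 1576, 2349.9 and 1184 against 3659, 3230.1 and 1732 CPM for matrix genes, with Sparc at 37.2%.

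Cell cycle genes had a high median, 2.13, with 30 of 32 positive, but 2 rose (6.25%, beside 3.87% of all genes). They were Mcm5, a helicase subunit of DNA replication, and Birc5, a mitotic regulator. The 17 genes of G2 and mitosis had a median of 2.55. Mki67, a marker of proliferating cells, had 16.7, 0.900 and 1.54 CPM in the contralateral and 51.5, 59.6 and 8.90 CPM in the ICH replicates, and Top2a, the topoisomerase of dividing cells, had 17.7, 1.19 and 1.30 CPM against 66.4, 54.1 and 12.1 CPM. For both, contralateral replicate 1 was far above contralateral replicates 2 and 3 and also above ICH replicate 3. In the same libraries 15 rose with the DESeq2 test and 17 with the exact test of edgeR. Without contralateral replicate 1, 19 of the genes rose, without ICH replicate 3, 20 did, and without any 1 of the others 0 did. The summed level was 393, 265 and 275 CPM against 1092, 823 and 352 CPM.

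Of 16 heat shock and unfolded protein response genes 0 rose and 0 fell, where 3.87% of all genes rose and 0.0998% fell. Their median was 0.05, and it went from -0.05 to 0.15 with 1 library left out. Without ICH replicate 3, 3 of them rose. Hspb1, a small heat shock protein, had 36.3, 22.6 and 16.6 CPM against 146, 55.1 and 17.6 CPM, and Hspa5, the main chaperone of the endoplasmic reticulum, had 343, 408 and 311 CPM against 496, 469 and 361 CPM, with overlapping groups for both.

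Neuronal function genes had negative medians and 0 calls, where 0.0998% of all genes fell. Of 23 synapse genes 22 had a negative log2 fold change, 0 passed, and the median was -0.38. Snap25, a core protein of vesicle release, had 2185, 1389 and 2829.5 CPM in the contralateral and 1045, 1250.1 and 1858 CPM in the ICH replicates, a log2 fold change of -0.62 (SE 0.34). Contralateral replicate 2 lay among the ICH values. All 15 voltage-gated ion channel genes were negative, with a median of -0.52 and 0 past the threshold. Scn1a, a sodium channel of inhibitory neurons, had 93.1, 135 and 129 CPM against 49.4, 79.2 and 80.4 CPM, groups that did not overlap, and a log2 fold change of -0.78 (SE 0.24, adjusted p = 0.198). Of 16 immediate early genes, which follow neuronal activity, 13 were negative, 0 passed, and the median was -0.58. Arc, which acts at active synapses, had 187, 123 and 257 CPM against 38.1, 68.6 and 147 CPM. ICH replicates 1 and 2 were under every contralateral value, and ICH replicate 3 exceeded contralateral replicate 2. The immediate early median was -0.24 without contralateral replicate 3 and -0.30 and -1.02 without ICH replicates 1 and 3. For synapse genes it was -0.25 and -0.63 without ICH replicates 1 and 3, and for ion channels -0.27 without ICH replicate 1. Without ICH replicate 3, 5 immediate early genes fell and 1 rose. Without contralateral replicate 2, 1 synapse gene fell. With both of these libraries left out, 7 immediate early genes, 5 synapse genes and 1 ion channel gene fell.

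Cholesterol synthesis genes had 0 of 20 past the threshold, where 0.0998% of all genes fell. They had 18 negative values and a median of -0.33. Without contralateral replicate 2, which had the highest summed level, the median was -0.15. In 10 of the 20 every ICH replicate was lower than every contralateral one, against 9.96% of all genes. Srebf2, the transcription factor of the pathway, had 246, 268 and 257 CPM in the contralateral and 176, 163 and 222 CPM in the ICH replicates, a log2 fold change of -0.46 (SE 0.16, adjusted p = 0.227). Its groups did not overlap, and ICH replicate 3 was the highest ICH sample. The summed level was 1899, 2464 and 2007 CPM against 1462, 1610.2 and 1803 CPM. The 15 nuclear genes of oxidative phosphorylation had 0 past the threshold and a median of -0.14, -0.24 without contralateral replicate 1 and -0.05 without contralateral replicate 2.

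**Figure D4:**
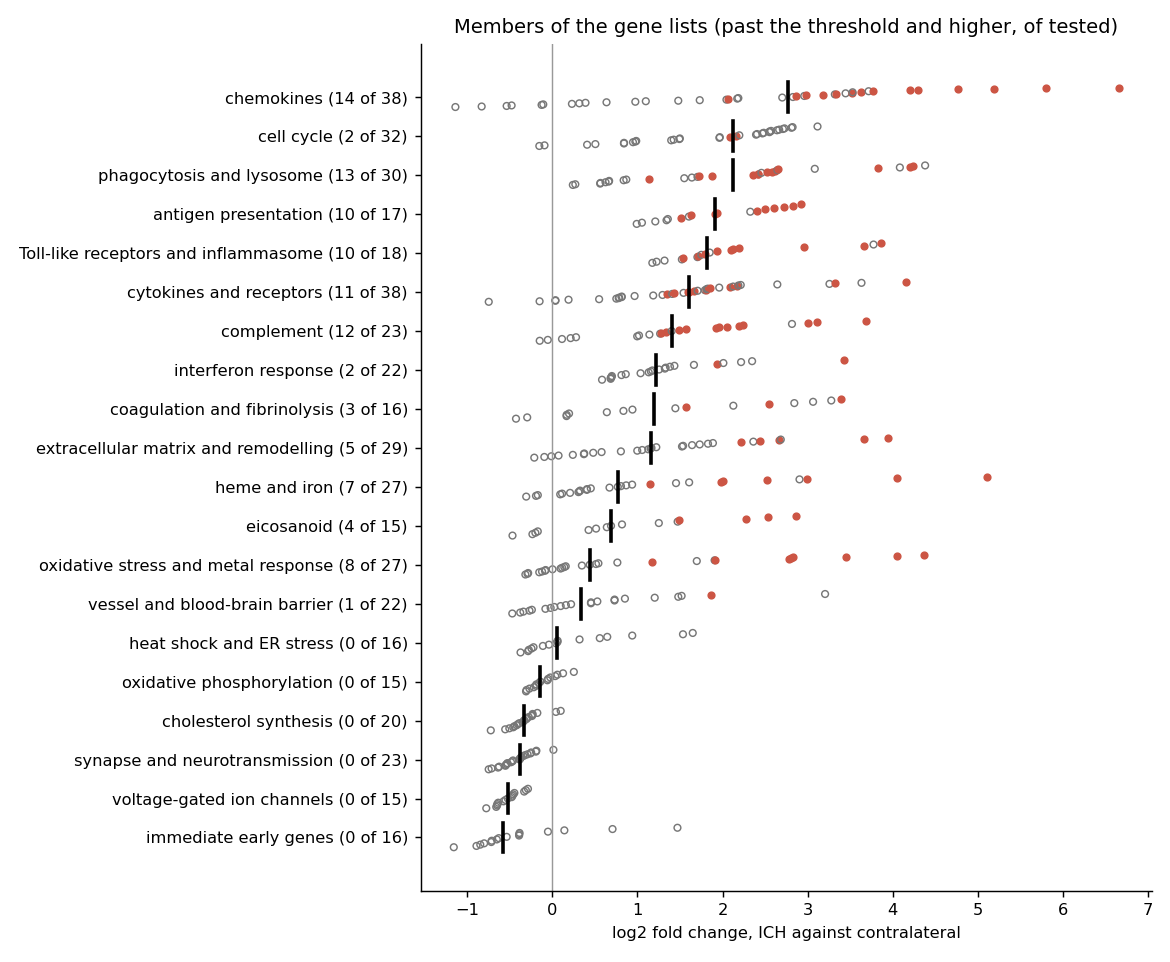
Each dot is a tested member of a functional gene list at its log2 fold change, ICH against contralateral, and black bars mark the medians. Filled red dots rose by the threshold of the study's methods, and the numbers beside each name give how many rose of how many were tested.

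Cell type markers were read beside these groups. In bulk tissue fewer cells of a type and less RNA per cell cannot be told apart, and the part of cell composition in the values given here was not tested. Of 10 markers of homeostatic microglia all were positive and 1 rose, beside 3.87% of all genes, with a median of 0.85. Csf1r had 256, 199 and 132 CPM in the contralateral and 655, 577 and 257 CPM in the ICH replicates and made up 51.0% of the summed level, which was 594, 438 and 337 CPM against 1129.7, 1025 and 545 CPM. P2ry12 and Tmem119, surface proteins of resting microglia, had 22.4, 20.1 and 11.7 against 28.2, 40.9 and 25.5 CPM and 48.5, 58.8 and 25.8 against 45.9, 56.5 and 39.99 CPM and did not pass. Of 10 markers of blood monocytes and macrophages 3 rose, Ccr2, Ms4a7 and Plac8, with a median of 1.96. Their sum was 95.4, 87.2 and 62.8 CPM against 422, 441 and 87.1 CPM, with 28.3% from Vcan, which other cells of the tissue also express. ICH replicate 3 lay inside the contralateral range of that sum. The monocyte markers that rose were 1, 1 and 0 without contralateral replicate 1, 2 or 3, and 1, 0 and 7 without ICH replicate 1, 2 or 3, and 4 microglia markers rose without contralateral replicate 1, 3 without ICH replicate 3 and 0 without any 1 of the others.

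Neutrophil markers summed to 50.01, 29.7 and 40.8 CPM in the contralateral and 704, 960.1 and 201 CPM in the ICH replicates, but 81.98% of that was Lcn2, a gene that reactive astrocytes also express. Of 10 tested, Lcn2 and Csf3r rose, beside 3.87% of all genes, and the median was 1.63. The granule protein genes Mpo, Elane and Ltf, also on this marker list, had 5, 5 and 0 reads in all 6 libraries and were not tested. S100a8 and S100a9, abundant proteins of neutrophils, had 6.94, 0.936 and 0.241 against 14.7, 19.7 and 0.528 CPM and 13.3, 3.20 and 1.25 against 29.8, 30.7 and 1.55 CPM, with overlapping groups. Without contralateral replicate 3, 3 neutrophil markers rose, as they did without ICH replicate 3. Of 9 T and NK cell markers 3 rose, Cd2, Cd8a and Cd4, with a median of 2.16. In rats Cd4 and Cd8a are also found on macrophages. The T-cell receptor chains Cd3d, Cd3e and Cd3g had 2.13, 1.50 and 2.92 and did not pass. The T and NK sum was 20.98, 18.4 and 9.87 CPM against 127, 106 and 31.5 CPM, with Cd4 at 51.8%, and 1 marker rose without contralateral replicate 2 or 3 or ICH replicate 1 or 2, 5 without ICH replicate 3. Cd4 lost the call without ICH replicate 1, Cd8a without contralateral replicate 2 or 3 or ICH replicate 1 or 2, and Cd2 when any 1 library other than ICH replicate 3 was left out. With limma on log2(FPKM + 1) the medians were 0.59 for T and NK cell, 0.65 for neutrophil and 0.31 for B-cell markers. Of 5 B-cell markers 0 passed, with a median of 2.53, or 1.04 without ICH replicate 2, and a sum of 0.392, 1.55 and 0.963 CPM against 1.48, 7.93 and 1.20 CPM.

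Red blood cell markers had 0 of 8 past the threshold, where 3.87% of all genes rose and 0.0998% fell. They had 2 positive values and a median of -0.28. Hbb, a β-globin gene and 46.6% of the sum, had 132, 346 and 90.5 CPM in the contralateral and 113, 228 and 102 CPM in the ICH replicates. Contralateral replicate 2 was the highest sample, and without it the median of the list was 0.33. With 1 library left out the median went from -0.63 to 0.33.

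Astrocyte markers were grouped by state, and the difference between the states was not tested. Of all genes tested, 3.87% rose and 0.0998% fell. The 10 homeostatic markers had 0 past the threshold, a median of -0.40 and a sum of 7425, 8068 and 6568 CPM against 7326, 6816 and 6657 CPM, 36.7% of it from Glul. That median was -0.20 without contralateral replicate 2 and -0.25 without ICH replicate 1. Of 13 reactive markers 4 rose, Lcn2, Timp1, Cp and Steap4, with a median of 1.73. Gfap, the intermediate filament of astrocytes, made up 69.9% of the reactive sum and had 2434, 1595 and 1016 CPM against 4834, 3105 and 1725 CPM, with ICH replicate 3 inside the contralateral range and no call. Vim, another filament gene, had 243, 171 and 96.8 CPM against 1378, 773 and 182 CPM and no call. The reactive sum was 2871, 1956 and 1279 CPM against 7348, 5321 and 2256 CPM, and the markers that rose were 2, 3 and 2 without contralateral replicate 1, 2 or 3, and 3, 3 and 9 without ICH replicate 1, 2 or 3. Oligodendrocyte markers, with Mbp at 46.3%, summed to 8709.9, 20540.1 and 10619.7 CPM against 9908, 10064 and 9644 CPM, 0 of 10 passed, and the median of -0.31 became 0.04 without contralateral replicate 2 and -0.50 without contralateral replicate 1. Their precursors had 0 of 8 past the threshold and a median of 0.01, from -0.13 to 0.22 with 1 library left out.

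Neuron markers had lower mean sums in the ICH replicates, with 0 calls, where 0.0998% of all genes fell. The 10 pan-neuronal markers summed to 6452, 5977 and 7597 CPM in the contralateral and 3596, 4319 and 5708 CPM in the ICH replicates, groups that did not overlap, with a median of -0.49 and 31.4% from Snap25. Map2, a dendritic protein gene, had 646, 632 and 592 CPM against 224, 458 and 466 CPM. Without contralateral replicate 1, 2 of the 10 fell. Striatal projection neurons, the main cells of the injected region, had 15 markers with a median of -0.20 and a sum of 798, 662 and 859 CPM against 516, 581 and 774 CPM, with ICH replicate 3 inside the contralateral range. Cortical excitatory markers had a median of -0.45, 9 of 9 negative, and a sum of 4932, 1824 and 4825 CPM against 2782, 2376 and 3544 CPM, with contralateral replicate 2 the lowest of all. Interneuron markers had a median of -0.33 and a sum of 1239, 1199 and 1388 CPM against 810.4, 883 and 1245 CPM. Among them Pvalb, a calcium buffer of fast-spiking cells, had 74.9, 139.6 and 123 CPM against 59.02, 57.9 and 67.7 CPM, and 1 marker fell without contralateral replicate 1. With 1 library left out the medians went from -0.33 to -0.07 for striatal, from -0.79 to -0.20 for cortical and from -0.61 to -0.23 for interneuron markers.

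Markers of vascular and meningeal cells were read beside the 3.87% of all genes that rose. Of 8 endothelial markers 0 passed, with a median of -0.14, from -0.19 to 0.10 with 1 library left out. Of 9 markers of pericytes and smooth muscle, Tagln, an actin-binding protein, rose by 1.93 on the log2 scale, and the median was -0.10, from -0.27 to 0.04 with 1 library left out. Tagln had 76.2, 72.6 and 42.8 CPM in the contralateral and 395, 253 and 83.3 CPM in the ICH replicates, 46.4% of the sum, and lost the call when any 1 library other than ICH replicate 3 was left out. Of 10 fibroblast and meninges markers Lum, a matrix proteoglycan, rose (lost without contralateral replicate 1 or 3 or ICH replicate 2), with a median of 0.77, or 0.49 and 0.51 without contralateral replicate 1 or ICH replicate 2, and sums of 209.9, 366 and 206 CPM against 411, 476 and 376 CPM.

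Markers of other regions were read list by list, beside the 3.87% of all genes that rose and the 0.0998% that fell. Differences between the lists were not tested. All 8 markers of choroid plexus and ependyma rose, and Ttr, which carries thyroid hormone, had 105, 198 and 103 CPM against 1335, 1906 and 2145 CPM and made up 88.9% of their sum of 126, 231 and 119.9 CPM against 1485, 2138 and 2412 CPM. The number of choroid plexus and ependyma markers that rose was 7, 8 and 7 without contralateral replicate 1, 2 or 3, and 8, 7 and 7 without ICH replicate 1, 2 or 3, and 3 with all 12 samples in the fit. Of 10 hypothalamic markers Pmch, Avp and Gal rose, and their sum was 17.3, 43.6 and 30.8 CPM against 26.9, 159.8 and 303 CPM, with Oxt at 27.8% and ICH replicate 1 inside the contralateral range. The number that rose was 2, 3 and 2 without contralateral replicate 1, 2 or 3, and 5, 2 and 2 without ICH replicate 1, 2 or 3, and 1 with all 12 samples in the fit. The 8 thalamus and 8 hippocampus markers had 0 past the threshold and medians of 0.55 and -0.15. With 1 library left out these medians went from 0.25 to 0.74 and from -0.33 to 0.11, and thalamus markers that rose were 0, 1 and 2 without contralateral replicate 1, 2 or 3, and 1, 0 and 0 without ICH replicate 1, 2 or 3. The part of tissue dissection in these values was not tested.

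**Figure D5:**
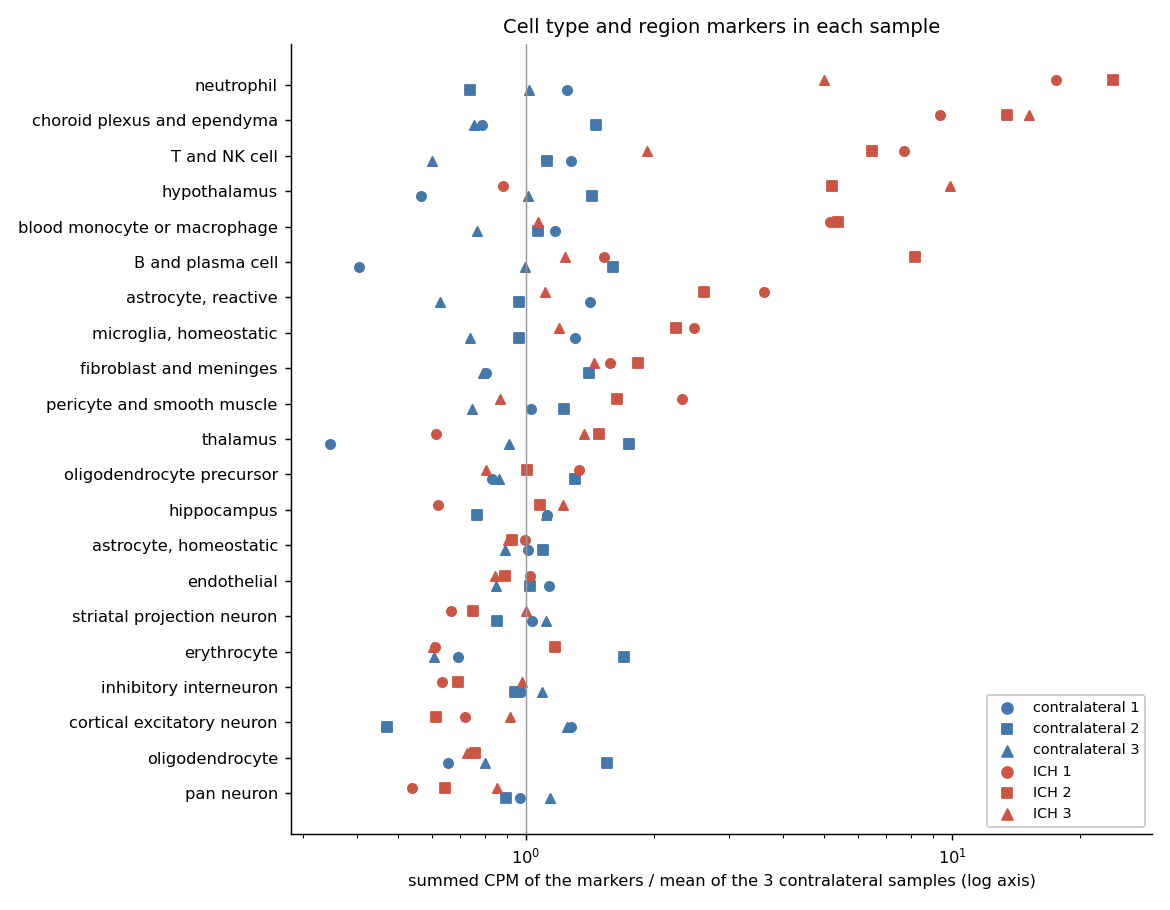
Points give the summed CPM of the markers of each cell type or region in each sample, divided by the mean of the 3 contralateral samples, on a log axis. The sums of choroid plexus and neutrophil markers lie far above the contralateral values in all 3 ICH samples, and the neutrophil sum is 81.98% Lcn2.

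The same contrast was run in the older animals of the series, whose sample labels say 21 months where the growth protocol says 22. The edgeR test of a difference of the ICH effect between the ages, of the same quasi-likelihood kind, gave 0 of 19061 genes at an adjusted p under 0.05 and 299 at an unadjusted p under 0.05. DESeq2 gave 0 and 265. Of the 716 genes past the threshold at 13 months, 694 (96.9%) had the same direction in the older animals, as had 75.5% of all genes tested, and 247 (34.5%) passed the threshold there in that direction. Of all 18045 genes, 327 (1.81%) passed it in the older animals. The log2 fold changes of Hmox1, Il1b and C3 were 4.05, 4.15 and 3.01 at 13 months and 4.41, 5.20 and 4.003 in the older animals. The class II genes Cd74, RT1-Ba, RT1-Da and RT1-Db1 had log2 fold changes of 2.41, 2.92, 2.82 and 2.60 at 13 months and -0.21, -0.17, -0.03 and -0.34 in the older animals, and for each the test of the difference did not pass, with an adjusted p of 1.00.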

How the data were processed

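The authors deposited read counts for 24102 genes, without normalization, and FPKM values for 24099 genes, which divide reads by gene length and library size. By the study's methods the authors used Cutadapt to trim reads and TopHat2 to align them to the rat genome, and discarded reads with several locations. The submitters' processing notes name bcl2fastq, TopHat2, edgeR and Rnor 6.0. Which tool counted the reads, and with what strand setting, is not given in the sources used here. Each table also holds 4 columns, 8 in all, that match no described sample and were not used.

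The main test used R 4.3.3 and edgeR 4.0.16 on counts: at least 10 reads over the 6 samples, TMM, estimateDisp, glmQLFit and glmQLFTest with a prior count of 0.125, and Benjamini-Hochberg adjustment over all genes tested. A standard error is the absolute log2 fold change divided by the root of F. An exact permutation test of 3 against 3 samples cannot go below p = 0.1, so none was used. Members and lists were chosen with earlier results of these data known. Named genes were the 12 largest increases and 12 largest decreases among genes past the threshold with groups that do not overlap, a mean of at least 1 CPM and a symbol that is not clone based. As fewer than 12 decreases qualified, those with an unadjusted p under 0.01 at any fold followed. From each list, up to 4 members past the threshold with the largest fold, the 2 most abundant members and any other member could be named. Some list members are not reported here by name. Promoters came from RefSeq (GRCr8), with 11651 of 18045 genes matched by symbol.

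Alternatives were a block for replicate number, all 12 samples in the fit, DESeq2 1.42.0 (size factors alone, or its test), the exact test of edgeR, its robust option, filterByExpr, no filter beyond 1 read, and a prior count of 2. Others were limma 3.58.1 on FPKM values with 1 or 0.1 added before the log2, no mitochondrial genes, and each library left out. The version 4 method of edgeR and leaving out both unusual libraries were chosen after seeing the data. The fits were tested on simulated data. Python 3.11.15 with NumPy 2.4.6 and matplotlib 3.10.9 was used for sequences and plots.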

Additional observations from a re-analysis of the deposited data

How the results depend on the processing

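The 716 genes past the threshold kept their direction in every fit that tested them. They were chosen in libraries that these fits share, so the kept direction is no independent check. Genes with an adjusted p under 0.05 numbered 0 in the fit reported, 1264 with the DESeq2 test, 942 with edgeR's exact test, 29 with no filter beyond 1 read, 3 without mitochondrial genes, 1 with limma on log2(FPKM + 1) and 3178 without both unusual libraries, and from 0 to 1542 with each library left out. Genes past the threshold numbered 1189 with the DESeq2 test (1146 higher, 43 lower), 1210 with the exact test (1161 higher, 49 lower), 296 with limma on log2(FPKM + 1) (293 higher, 3 lower), and 1774 without both unusual libraries (1581 higher, 193 lower). With each library left out they ranged from 262 to 1476, those higher from 252 to 1417 and those lower from 5 to 59. Genes that fell numbered 41 with all 12 samples in the fit and 30 with edgeR's version 4 method. A block for replicate number gave 731 genes at an adjusted p under 0.05 and 1187 past the threshold, 1161 of them higher, and 23 of the 32 cell cycle genes rose with this block, against 2. Deviations of samples with the same number correlated at 0.351, 0.081 and 0.411 over 13392 genes, and ICH replicate 2 correlated better with contralateral replicate 1 (0.094), so the block was kept as an alternative. The count of genes whose ICH effect differed between ages was 0 in all fits run for it. Of 479 values of the 24 genes named by the rule, 392 stayed on their side of the threshold, 84 were lost and 3 gained. With limma on log2(FPKM + 1), list medians fell from 2.76 to 0.97 for chemokines, 1.60 to 0.70 for cytokines, 1.82 to 1.15 for pattern receptors, 1.91 to 1.16 for antigen presentation, 2.12 to 1.41 for phagocytosis, 1.19 to 0.57 for coagulation, 1.16 to 0.71 for matrix, 2.13 to 1.18 for cell cycle, 0.77 to 0.47 for heme and iron, 0.34 to 0.18 for vessel and 0.69 to 0.37 for eicosanoid genes, and from 1.96 to 1.17 for monocyte, 0.77 to 0.47 for fibroblast, 2.16 to 0.59 for T and NK cell, 1.63 to 0.65 for neutrophil and 2.53 to 0.31 for B-cell markers. Medians between -0.5 and 0.1 that moved by over 1.5 times were those of oxidative phosphorylation (-0.14 to -0.07), heat shock (0.05 to 0.11), and markers of erythrocytes (-0.28 to -0.10), endothelium (-0.14 to -0.09), pericytes (-0.10 to -0.06), oligodendrocyte precursors (0.01 to 0.05), striatal (-0.20 to -0.10) and cortical neurons (-0.45 to -0.26) and hippocampus (-0.15 to -0.01). The cause of these differences was not tested. At this depth, folds of genes near the floor of 3 reads are not measured well.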

Other observations

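Eicosanoid genes make and sense prostaglandins and leukotrienes, the lipid signals of inflammation. Of 15 tested 4 rose and 0 fell, with a median log2 fold change of 0.69. Hpgds, the prostaglandin D synthase of hematopoietic cells, had 1.14, 0.252 and 1.01 CPM in the contralateral and 6.88, 7.09 and 3.48 CPM in the ICH replicates, a log2 fold change of 2.87 (SE 0.58, adjusted p = 0.171). The thromboxane synthase Tbxas1 had 5.96, 5.15 and 1.97 CPM against 42.5, 27.1 and 6.37 CPM, and Pla2g4a, the phospholipase that frees arachidonic acid, had 7.22, 6.30 and 4.19 CPM against 19.3, 22.7 and 7.91 CPM. The groups did not overlap in any of the 3. The leukotriene receptor gene Cysltr1 also rose. The cyclooxygenase genes Ptgs1 and Ptgs2 had log2 fold changes of 0.43 and -0.23, and Alox5ap, which activates 5-lipoxygenase, had 1.25, none past the threshold. Ptgds, the prostaglandin D synthase of the brain and meninges, had 472, 570.0 and 856 CPM against 551, 467 and 636 CPM, with overlapping groups. Leaving out 1 library, the eicosanoid genes that rose were 1, 2 and 1 without contralateral replicate 1, 2 or 3, and 1, 1 and 5 without ICH replicate 1, 2 or 3. Hpgds passed in all 6 of these fits, Tbxas1 and Pla2g4a lost the call when any 1 library other than ICH replicate 3 was left out, and Cysltr1 passed in the fit without contralateral replicate 2.

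Further macrophage genes were chosen after their values were seen. Adgre1, the F4/80 antigen of macrophages, had the lowest p after the choroid plexus gene Kl, with 28.5, 48.4 and 25.6 CPM in the contralateral and 391, 491 and 290.2 CPM in the ICH replicates and a log2 fold change of 3.51 (SE 0.32, adjusted p = 0.0610). ICH replicate 3 was close to the other ICH replicates in this gene. Lyz2, the lysozyme of myeloid cells, had 125, 86.2 and 55.8 CPM against 1619, 1863 and 401 CPM and a log2 fold change of 3.86. Tmsb4x, an actin-sequestering peptide gene at high level in immune cells, had 1474, 1048 and 1218 CPM against 4043, 3829.9 and 2089 CPM and a log2 fold change of 1.41.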
